A study of Mus musculus with 8 samples.

Results

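Adult neurogenesis and immature neuron genes were read in the hippocampus of BTBR T+ Itpr3tf/J (BTBR) mice, an inbred strain studied as a model of autism, and of C57BL/6J (B6) controls. The 9 genes were Sox2, Hes5, Eomes, Neurod1, Dcx, Sox4, Igfbpl1, Tubb3 and Neurod2, and they were taken through every probe that carries one of these names on the array. That gave 13 probes of 41174, or 9 gene names of 27373. All mice were untreated males of 5 months, with 4 in each strain, and 1 whole hippocampus sample per mouse was hybridised to 1 array (an Agilent 1-colour array, which reads 1 dye-labelled sample against probes of 60 bases). BTBR is an inbred line carried in every cell, with no transgene, knockout or drug to separate from the rest of its genome, so a difference between the strains is a difference between 2 whole genomes. The labels give C57BL/6J as the strain background of the BTBR samples too, while their genotype entry and titles name BTBR, and the groups follow the latter.

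In the adult hippocampus new neurons arise in the subgranular zone of the dentate gyrus. Radial glia-like stem cells, which use Sox2 and Notch signalling through Hes5, give rise to intermediate progenitors marked by Eomes (Tbr2), these pass through a Neurod1 stage to neuroblasts that hold doublecortin (Dcx), and the young neurons then become dentate granule cells. Few cells of the adult hippocampus are in these stages at any time, while Sox2 and Hes5 are also used by astrocytes, Tubb3 by neurons of all ages and Neurod2 by mature excitatory neurons. In a whole hippocampus, fewer cells of a type and less RNA per cell cannot be told apart.

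The array reads Dcx at 3 places along its transcript and Neurod2 and Igfbpl1 at 2 each. The first 30 bases of the probes on which the results below turn are shown, 5′ to 3′ on the strand of the transcript, because each value below belongs to that stretch of the transcript and not to the whole gene. Positions are those of the probe annotation in the array files on mm9, and the files do not say whether a probe lies in coding sequence or in a UTR.
Hes5 (chr4:154336347-154336406, plus strand, base 1139 of the transcript): acgatgatccttaaaggattcctttgtatg
Dcx (chrX:140290854-140290913, minus strand, base 8435): ataaaaagaaaagcaaaacagagatgtgcg
Dcx (chrX:140295893-140295952, minus strand, base 3396): tcccatgttgtcccaagtattcatttaaga
Dcx (chrX:140298065-140298124, minus strand, base 1224): tgactctgattcacttggcgattccatgtg
Neurod2 (chr11:98187943-98188002, minus strand, base 1865): ttcaccctaacacgaatctccgcgtttttt
Neurod2 (chr11:98188667-98188726, minus strand, base 1141): aacttctcgctcaagcaggactcgtccccc
Igfbpl1 (chr4:45822803-45822862, minus strand, base 2245): ccattgtgtattggagttctcactcaaact
For Dcx, Neurod2 and Igfbpl1 the distance between the outermost probes was the same in the genome as along the transcript, 7211, 724 and 1178 bases, so no intron lies between them.

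Before any strain comparison, the arrays of BTBR 1 and BTBR 2 stood apart from the other 6. The mean log2 intensity of 10 genes of hippocampal regional identity was 11.61 in BTBR 1 and 11.09 in BTBR 2, against 12.33 to 13.13 in the 4 B6 arrays and 12.72 to 12.90 in BTBR 3 and BTBR 4. The mean of 7 thalamic genes (without Gbx2, which passed the filter on dim probes only through BTBR) was 13.21 in BTBR 1 and 11.19 in BTBR 2, against 10.35 to 10.73 in the other 6 arrays. Genes of the choroid plexus, which secretes cerebrospinal fluid beside the hippocampus, had a mean of 13.23 and 13.17 in these arrays and of 11.17 to 12.57 in the others. Both arrays lay on the first of 2 slides, which also held B6 1 and B6 2, so that each slide held 2 mice of each strain. The differences of the tested probes below are therefore also given without BTBR 1 and BTBR 2, a choice made after their values were seen. So are those of Gfap, Nefl and the called genes of the wider neurogenesis set other than Rrm2. Differences of the called identity and thalamic genes are not given in this way. Between 56.8% and 71.9% of the probes of an array were well above background, the scanner software's flag for a spot clearly brighter than its surroundings.

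Of the 13 probes, 9 were tested, for 8 of the 9 genes. The others, both remaining Dcx probes, the Eomes probe and the second Igfbpl1 probe, were well above background on too few arrays and are given with their values and no test. No tested probe changed between the strains by limma at an adjusted p of 0.05 and none by the rank product at a pfp (percentage of false prediction) of 0.05, against 7.61% and 3.92% of all 27982 tested probes. The Igfbpl1 probe passed the filter only through BTBR and is described without a test further on, so the counts that follow cover the other 8 probes. Without adjustment 1 of the 8 had a limma p under 0.05, the Hes5 probe. The strains did not overlap at 1 of the 8 probes, also Hes5 and lower in BTBR, where 14.2% of all tested probes did not overlap in either direction and 7.27% did so with BTBR lower. The 8 differences (BTBR minus B6, log2) had a median of −0.15, with 3 above and 5 below 0, beside a median of 0.01 over all tested probes. In size their median was 0.22, beside 0.10 over all tested probes, and their median spread within a strain was 0.26 (SD), beside 0.13.

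**Figure D1:**
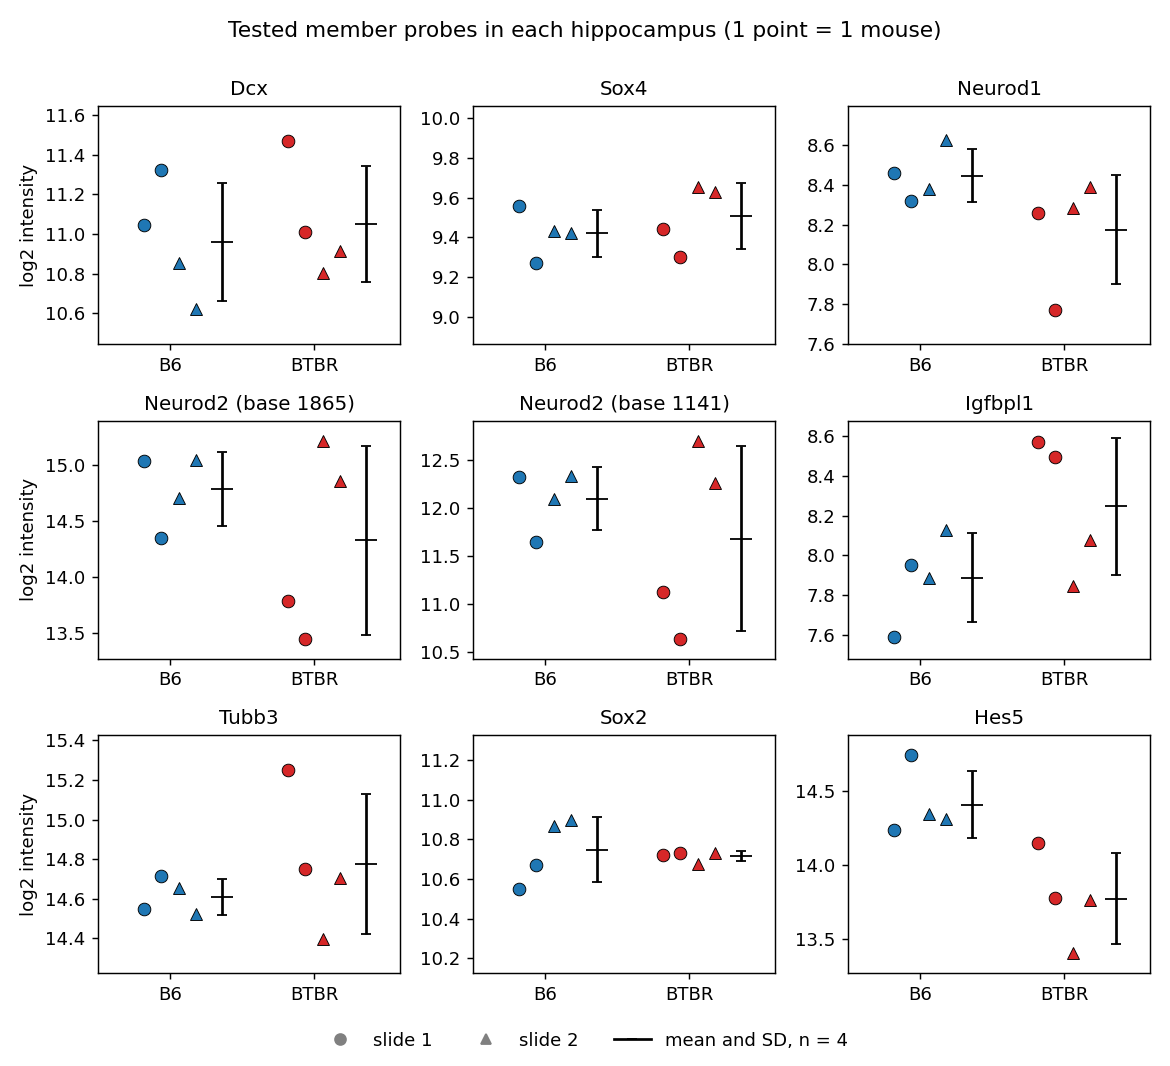
Log2 intensity of the 9 tested probes in each of 8 mice (y axis, a scale of its own for each probe), with B6 in blue, BTBR in red, circles for slide 1, triangles for slide 2 and the mean and SD of 4 mice beside the points. The Hes5 points of the strains do not overlap, and for both Neurod2 probes and Igfbpl1 the BTBR circles lie apart from the BTBR triangles.

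Hes5, a transcriptional repressor that Notch signalling switches on to hold stem cells in an undifferentiated state, came closest to a difference between the strains. Its log2 intensity was 14.24, 14.75, 14.34 and 14.31 in B6 1 to 4 and 14.15, 13.78, 13.40 and 13.76 in BTBR 1 to 4. Every BTBR value lay below every B6 value, with BTBR 1 close to the lowest B6 mouse. The mean difference was −0.64 ± 0.17 (SE, 95% interval −1.01 to −0.26), which is 1.56-fold lower in BTBR with an interval of 1.20 to 2.02. The limma p was 0.0040, the adjusted p over all tested probes was 0.0517 and the rank product's pfp was 0.0581, so it missed both thresholds narrowly, and the exact two-sided permutation test gave p = 0.0286, the smallest that 4 against 4 can give. The arrays of slide 1 gave −0.53 and those of slide 2 gave −0.75, where the lack of overlap fixes the direction, and with slide as a term in the limma fit the adjusted p was 0.0313. Hes5 was also called without BTBR 1 (−0.76, adjusted p 0.0200) and without BTBR 1 and BTBR 2 (−0.83, adjusted p 0.0305), while leaving out any of the other 7 mice left it uncalled.

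Because Hes5 is also used by astrocytes, the level of astrocyte markers stands beside it. The mean of 8 astrocyte genes was 14.59 to 14.65 in B6 and 14.23 to 14.41 in BTBR, without overlap, and 7 of the 8 genes were lower in BTBR, of which 1 was called by limma and by the rank product (12.5%, against 4.33% and 2.39% of all tested genes). That gene was Gfap, the astrocytes' intermediate filament protein, which radial glia-like stem cells hold too, at −1.30 ± 0.17 (SE, limma adjusted p 0.0014), and at −1.04 without BTBR 1 and BTBR 2 (adjusted p 0.0088). Those are values of its brightest probe, and its other probes, at −0.57 and −0.49, were called as well (adjusted p 0.0060 and 0.0353). Aldoc was counted by its brightest probe, at −0.17 (adjusted p 0.35), and its other probe was called lower, at −0.61 (limma adjusted p 0.0050). The dimmer probes of Slc1a3 were both at 0.12 (adjusted p 0.66 and 0.87), beside −0.24 for its brightest (0.0644). Without Gfap the astrocyte mean was 14.72 to 14.74 in B6 and 14.43 to 14.71 in BTBR, so that the gap between the strains was narrow. The gene at the other end of the list, Aldh1l1, had a difference of 0.19 (adjusted p 0.54). BTBR 3 was the lowest mouse for Hes5 and for the astrocyte mean, at 14.23, but the order did not hold elsewhere, since B6 2, the highest mouse for Hes5, had the lowest astrocyte mean of the B6 mice (14.59), and BTBR 1, 2 and 4 shared a mean of 14.40 to 14.41 with Hes5 values from 13.76 to 14.15. The part of these markers in the Hes5 difference was not tested. Of 7 other Notch pathway genes on the lists described below (Notch1, Rbpj, Dll1, Jag1, Lfng, Hes1 and Hes6, grouped after their values were seen), none was called by limma (1 on the scanner software's processed signal), 2 had an unadjusted limma p under 0.05 (28.6%, against 19.2% of all tested genes), and their differences ran from −0.31 to 0.19.

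Sox2, the transcription factor that keeps neural stem cells and astrocytes in their state, differed least. Its values were 10.55, 10.67, 10.87 and 10.90 in B6 and 10.72, 10.73, 10.68 and 10.73 in BTBR. The BTBR mice lay close together inside the B6 range. The difference was −0.03 ± 0.09 (SE, 95% interval −0.22 to 0.16, limma adjusted p 0.89), an interval that spans ratios of 0.856 to 1.12. It was −0.04 without BTBR 1 and BTBR 2, and its sign was positive without B6 3 (0.01) or without B6 4 (0.02).

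Eomes, which marks intermediate progenitors, was at the edge of what the array could read. Its probe (chr9:118394286-118394345) was well above background in B6 2 and BTBR 1 and in no other mouse. The log2 intensities were 7.66, 8.21, 7.72 and 7.82 in B6 and 8.29, 7.91, 7.62 and 7.76 in BTBR, and the strains overlapped over most of their range. A difference in Eomes was not detectable at this signal.

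Neurod1, a transcription factor of late progenitors and young granule neurons, was dim but measured, well above background in all 4 B6 and in 3 of 4 BTBR mice. Its values were 8.46, 8.32, 8.38 and 8.63 in B6 and 8.26, 7.77, 8.28 and 8.39 in BTBR. Most BTBR values lay below those of B6, but BTBR 4 lay above B6 2 and B6 3. The difference was −0.27 ± 0.14 (SE, 95% interval −0.58 to 0.04, limma adjusted p 0.34, exact permutation p = 0.0857), and the lowest value came from BTBR 2, where the probe was not well above background. It was −0.38 on slide 1 and −0.16 on slide 2, and −0.11 without BTBR 1 and BTBR 2 (adjusted p 0.68). On the scanner software's own processed signal, to which no offset of 50 is added, it was −0.96 (adjusted p 0.48).

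Dcx encodes a microtubule protein of migrating neuroblasts and is the usual marker of neurogenesis in the adult dentate gyrus. Its probe at base 8435 was well above background in all 8 mice, with values of 11.05, 11.32, 10.85 and 10.62 in B6 and 11.47, 11.01, 10.80 and 10.91 in BTBR. The strains overlapped, and in each of them the mice of slide 1 were above those of slide 2. The difference was 0.09 ± 0.18 (SE, limma adjusted p 0.86), with an interval of −0.32 to 0.49 that spans ratios of 0.802 to 1.41, and no difference within that range could be told from equal levels. Within slides it was 0.06 on slide 1 and 0.12 on slide 2, and it turned negative without B6 4 (−0.03), without BTBR 1 (−0.05) and without BTBR 1 and BTBR 2 (−0.10).

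The other Dcx probes read almost no signal. At base 1224 the values ran from 7.70 to 8.06 and the probe was well above background in B6 3, BTBR 1 and BTBR 4 only. At base 3396 they ran from 7.53 to 7.80 and the probe was well above background in no mouse. The Dcx result thus rests on the stretch at base 8435 alone.

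Sox4, a transcription factor that drives the neuronal programme in committed progenitors, was read by a single probe (chr13:29044066-29044125). Its values were 9.56, 9.27, 9.43 and 9.42 in B6 and 9.44, 9.30, 9.65 and 9.63 in BTBR. BTBR 3 and BTBR 4 were above all B6 mice and BTBR 1 and BTBR 2 were among them. The difference was 0.09 ± 0.10 (SE, 95% interval −0.14 to 0.31, limma adjusted p 0.72), and 0.22 without BTBR 1 and BTBR 2 (adjusted p 0.28).

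Igfbpl1, a secreted protein of the insulin-like growth factor binding family that is found in young neurons, was dim. Its probe at base 2245 was well above background in B6 4, BTBR 1, BTBR 2 and BTBR 4, so it entered the test through BTBR, the strain with the higher mean, and its difference is given as a description. The values were 7.59, 7.95, 7.89 and 8.13 in B6 and 8.57, 8.50, 7.85 and 8.08 in BTBR. BTBR 1 and BTBR 2 lay above every other mouse, and the other BTBR mice lay within the B6 range. The difference was 0.36 ± 0.18 (SE) over all mice, 0.77 on slide 1 and −0.05 on slide 2, and 0.07 without BTBR 1 and BTBR 2. On the processed signal without the offset it was 1.30. The second probe, at base 1067, was well above background in BTBR 1 alone, and its values ran from 7.54 to 7.74 in B6 and from 7.41 to 7.94 in BTBR.

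Tubb3 encodes a tubulin of young and mature neurons, and its probe (chr8:125945701-125945760) was printed 10 times on each array. Its values were 14.55, 14.72, 14.65 and 14.52 in B6 and 15.25, 14.75, 14.40 and 14.70 in BTBR. BTBR 1 was the highest mouse and BTBR 3 the lowest, and all B6 mice lay between them. Spots of an array differed by an SD of 0.10 to 0.17, the B6 mice by an SD of 0.091 and the BTBR mice by an SD of 0.35. The difference was 0.17 ± 0.16 (SE, 95% interval −0.19 to 0.52, limma adjusted p 0.66), 0.01 without BTBR 1 and −0.06 without BTBR 1 and BTBR 2.

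Neurod2, a transcription factor of maturing and mature excitatory neurons, varied more between mice than almost any other gene. At base 1865 its values were 15.04, 14.35, 14.70 and 15.04 in B6 and 13.79, 13.45, 15.22 and 14.85 in BTBR. At base 1141 they were 12.32, 11.64, 12.09 and 12.33 in B6 and 11.12, 10.64, 12.70 and 12.25 in BTBR. Both probes put the mice in nearly the same order, with BTBR 2 lowest, BTBR 1 next and BTBR 3 highest, and their spread within a strain exceeded that of 98.5% and 98.9% of all tested probes. The differences were −0.46 ± 0.38 and −0.42 ± 0.42 (SE, limma adjusted p 0.60 and 0.68). On slide 1 they were −1.08 and −1.10 (adjusted p 0.0461 and 0.0514), on slide 2 they were 0.16 and 0.26 (adjusted p 0.90 and 0.81), and the change between slides had an unadjusted interaction p of 0.0104 and 0.0087, 0.44 and 0.43 after adjustment. Over all tested probes 2779 had an unadjusted interaction p under 0.05 and none passed after adjustment. Without BTBR 1 and BTBR 2 the Neurod2 differences were 0.25 and 0.38 (adjusted p 0.63 and 0.45).

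**Figure D2:**
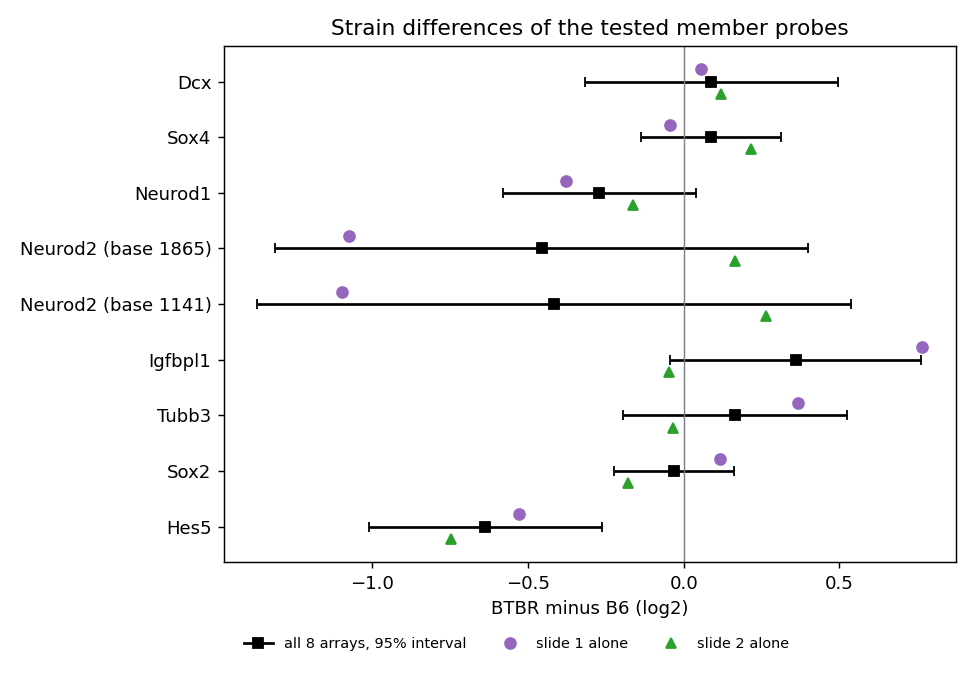
Difference BTBR minus B6 (x axis, log2) of the 9 tested probes, with black squares and bars for the estimate and 95% interval over 8 arrays, purple circles for slide 1 alone and green triangles for slide 2 alone. Among the 8 probes other than Igfbpl1, the Hes5 interval, from −1.01 to −0.26, is the single one that leaves out 0. Igfbpl1 passed the filter on dim probes only through BTBR, and its bar is a description. The 2 Neurod2 probes lie at −1.08 and −1.10 on slide 1 but at 0.16 and 0.26 on slide 2.

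The mice low in Neurod2 were those low in hippocampal identity genes. BTBR 1 and BTBR 2 were the lowest mice in both, B6 2 was the lowest of the B6 mice in both, and BTBR 3 was the highest of the BTBR mice in both. Of the 10 identity genes 9 had a lower mean in BTBR, with a median difference of −0.64. By the brightest probe of each gene none was called by limma, while the rank product called 4 lower and 1 higher (40% and 10%, against 2.39% and 1.93% of all tested genes). Cpne4 was at −0.82 by that probe (limma adjusted p 0.20), and its other probes were at −1.49 (0.00013) and −0.26 (0.70). At the ends of that list were C1ql2, a gene of dentate granule cells, at −1.87 (adjusted p 0.0543), and Wfs1, a gene of CA1 pyramidal cells, at 0.71 (adjusted p 0.10). In BTBR 3 and BTBR 4 C1ql2 was 10.14 and 10.91, against 10.76 to 12.25 in B6, and Wfs1 was 15.67 and 15.08, against 14.21 to 14.52. Among these 7 thalamic genes, all higher in BTBR on average, none was called by limma and 3 were called higher by the rank product (42.9%, against 1.93% of all tested genes). The differences ran from 0.50 for Lef1 to 1.22 for Slitrk6, and BTBR 1 was the highest mouse for each. In BTBR 3 and BTBR 4 the mean of the 7 genes was 10.63 and 10.65, within the B6 range of 10.35 to 10.73. The mean of 10 genes of mature neurons was 14.89 in BTBR 1 and 14.82 in BTBR 2, against 15.06 to 15.21 in the other mice. Of these, 1 fell by limma and by the rank product (10%, against 4.33% and 2.39%), Nefl, the light neurofilament chain, at −0.65 ± 0.10 (SE, limma adjusted p 0.0028) and at −0.59 without BTBR 1 and BTBR 2 (adjusted p 0.0352). Its other tested probe was at −1.93 (adjusted p 2.8e-06). A dimmer probe of Syt1 and of Map2 was also called lower by limma, at −0.71 and −0.35 (adjusted p 0.0134 and 0.0392). The brightest probes of these genes, which were counted, were at 0.03 and −0.25 (adjusted p 0.87 and 0.25). At the other end was Grin1 at 0.12 (adjusted p 0.67). The part of tissue makeup in the Neurod2 difference was not tested.

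BTBR 1 and BTBR 2, the mice with the most Igfbpl1, also had the highest choroid plexus means. The B6 mice did not follow that order. B6 4, with the most Igfbpl1 of its strain, had the lowest choroid plexus mean, 11.17, and B6 2 and B6 3, with 12.55 and 12.57, lay between B6 1 and B6 4 in Igfbpl1. All 7 tested choroid plexus genes were higher in BTBR on average, by a median of 0.29, from 0.11 for Aqp1 to 0.52 for Clic6, and none was called by either test. The mean of 6 ependymal genes was 11.25 in BTBR 1, above every other mouse, and 10.75 in BTBR 2, within the range of 10.04 to 10.88 of the others, with differences from −0.05 for Tmem212 to 0.59 for Rsph1 and none called by either test. Genes of the neuroblasts of the lateral ventricle wall, the other site of adult neurogenesis (Dlx1, Dlx2, Dlx5, Dlx6, Sp8, Gad2 and Meis2, which interneurons and striatal neurons also hold), had a mean of 10.47 in BTBR 1 and 11.13 in BTBR 2, against 10.09 to 10.61 in the others, so that BTBR 2 alone stood above the rest. All 7 were higher in BTBR on average, with a median difference of 0.20, from 0.06 for Meis2 to 0.42 for Gad2, and none was called by either test. The mean of 6 genes of oligodendrocyte progenitors was 12.55 in both BTBR 1 and BTBR 2 and 12.27 to 12.32 in the others, with differences from −0.04 for Cspg4 to 0.25 for Olig1. That of 5 tested Cajal-Retzius cell genes was 10.18 and 10.21 in these mice and 9.81 to 10.05 in the others, with differences from −0.34 for Ndnf to 0.43 for Lhx1. None of either list was called by either test. The part of tissue beside the hippocampus in the Igfbpl1 values was not tested.

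**Figure D3:**
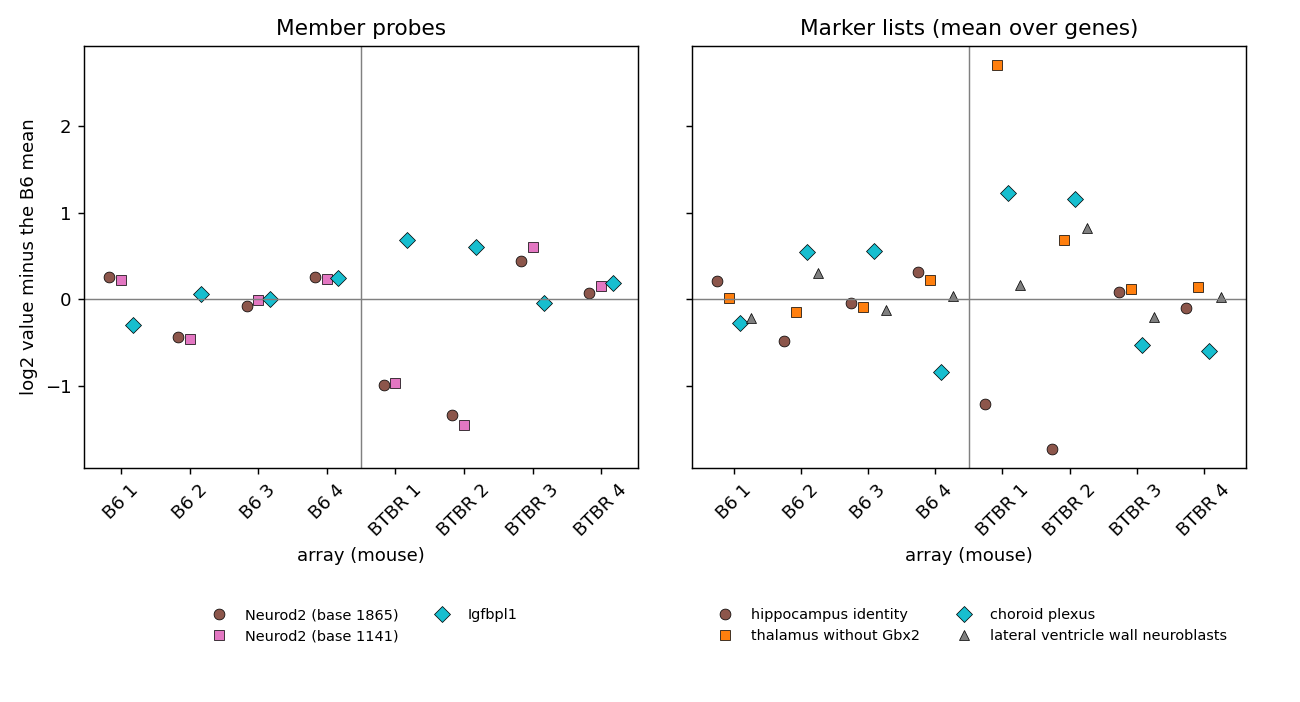
Log2 values minus the B6 mean (y axis) in each of the 8 mice (x axis), on the left for both Neurod2 probes and Igfbpl1 and on the right for the mean of 4 marker lists (the thalamic one without Gbx2). BTBR 1 and BTBR 2 are low in Neurod2 and in hippocampal identity genes, and high in Igfbpl1, choroid plexus and thalamic genes, while BTBR 3 and BTBR 4 lie close to or within the range of the B6 mice.

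As a description of what varied with Dcx inside the strains, the 5 named genes with the highest Pearson r to its base 8435 probe over 8 arrays, after each strain's mean was taken off, were Far2 (0.989), Pcsk4 (0.983), D630004D15Rik (0.974), Mtmr14 (0.971) and Alad (0.971). They were picked as the top of all tested probes and 8 points carry little, so the values say only how the arrays ran together. None of these 5 is on a neurogenesis list, and none was called between the strains (limma adjusted p 0.67 to 0.99).

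The wider set of 72 genes of adult neurogenesis other than those above was read through the brightest probe of each gene, and 63 genes passed the filter on dim probes. By limma 5 were higher and 3 lower in BTBR at an adjusted p under 0.05, and 55 were not called. That is 7.94% higher and 4.76% lower, where 3.49% and 4.33% of all 18399 tested genes were called. The higher count includes Rrm2, which passed the filter only through BTBR, and the uncalled Nhlh1 passed it only through B6. Over the 61 genes that passed it in both strains, 4 were higher (6.56%) and 3 lower (4.92%). Sox11, whose probes differ in direction as described below, is among these 4, and without it 3 of 60 genes (5%) were higher. The rank product called 1 gene higher and 5 lower (1.59% and 7.94%, against 1.93% and 2.39% of all tested genes), and Id4 was the single gene that both tests called. The genes called by the rank product alone were Tmsb10 (0.68, limma adjusted p 0.12), Hopx (−0.79, 0.11), Nnat (−0.84, 0.20), Bdnf (−0.83, 0.13) and Frzb (−0.71, 0.0992), which were 0.40, −0.33, −0.78, −0.33 and −0.34 without BTBR 1 and BTBR 2. The median difference over the 63 genes was 0.01. Leaving out 1 mouse left 1 to 8 limma calls. The count was 2, 1, 1 and 4 without B6 1, 2, 3 and 4, and 4, 4, 8 and 5 without BTBR 1, 2, 3 and 4. Sox11 was among the calls in all 8 of these fits, and Rrm2 only without B6 1. Without BTBR 1 and BTBR 2 together there were 3 calls. Within slide 1 alone limma called 6 higher and 6 lower, where 3.97% and 5.29% of all genes were called, and within slide 2 alone none higher and 1 lower, where 1.54% and 2.2% were.

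Of the 13 tested genes of stem and radial glia-like cells, 2 fell and none rose by limma (15.4% and 0%, against 4.33% and 3.49% of all tested genes). Id4, a helix-loop-helix inhibitor that keeps neural stem cells from activating, was 13.14, 13.25, 13.06 and 13.24 in B6 and 12.42, 12.65, 11.48 and 11.63 in BTBR. The strains did not overlap, with BTBR 3 and BTBR 4 the lowest, and the difference was −1.12 ± 0.25 (SE, adjusted p 0.0242), or 2.18-fold. The second Id4 probe had −1.04 ± 0.44 (SE, adjusted p 0.25), and without B6 1, 2, 3 or 4 or BTBR 4 the adjusted p of the first was 0.0573 to 0.0721. Without BTBR 1 and BTBR 2 the first was −1.61 (adjusted p 8.6e-05). Fabp7, a fatty acid binding protein of radial glia and astrocytes, was −0.48 ± 0.11 (SE, adjusted p 0.0254), with B6 values of 12.65 to 13.02 and BTBR values of 12.19 to 12.52 that did not overlap. It was not called without B6 1, 2 or 3 or BTBR 2 (adjusted p 0.0659 to 0.0797) or without BTBR 1 and BTBR 2 (−0.53, adjusted p 0.0759). The mean of the 13 genes was 10.94 to 11.05 in B6 and at most 10.87 in BTBR. Without Id4, Hopx and Fabp7 it was 10.11 to 10.28 in B6 and 10.10 to 10.27 in BTBR. Those 3 had the largest decreases and were left out after the values were seen, so this cannot show whether the other 10 differ. Of the other 10, 7 were lower and 3 higher in BTBR, Lpar1 by most (0.48, adjusted p 0.20). The astrocyte means given beside Hes5 were lower in BTBR too, and their part in the Id4 and Fabp7 differences was not tested.

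Of 6 tested genes of dividing cells, Rrm2 passed the filter only through BTBR and is described without a test. Of the other 5, Ccna2 (cyclin A2) rose and Pcna, the sliding clamp of DNA replication, fell by limma (20% each, against 3.49% and 4.33%), while the rank product called neither. Ccna2 was 0.35 ± 0.07 (SE, adjusted p 0.0210) and Pcna −0.29 ± 0.07 (adjusted p 0.0421). Mki67, the usual marker of dividing cells, was 8.27, 8.23, 8.25 and 8.30 in B6 and 8.36, 8.85, 8.94 and 8.44 in BTBR, at 0.38 ± 0.13 (SE, adjusted p 0.13). The strains did not overlap, as at 14.2% of all tested probes, but the probe was dim. It was well above background in 3 of 4 B6 and in all 4 BTBR mice. The mean of the 5 genes was 9.91 to 9.95 in B6 and 9.96 to 10.09 in BTBR, without overlap. Without Mki67 and Ccna2, left out after the values were seen, it was 10.74 to 10.82 in B6 and lower, 10.67 to 10.71, in BTBR. Mki67 and Ccna2 had the largest rises, so this turn follows from leaving them out and is no result of its own. The Pcna call was kept in 1 of the 8 fits that left out a mouse, and the Ccna2 call in 3. Without BTBR 1 and BTBR 2 the difference was 0.26 for Ccna2, no longer called (adjusted p 0.14), and −0.37 for Pcna (adjusted p 0.0325). Rrm2, a subunit of ribonucleotide reductase, was well above background in all 4 BTBR and in 0 of 4 B6 mice, at 7.68 to 7.92 in B6 and 8.03 to 8.22 in BTBR. Its difference was 0.30, 1.41 on the processed signal without the offset and 0.15 with normexp background correction. Top2a, Cdk1, Ccnb1 and Aurkb were not tested, with their best probes well above background in at most 1 of 8 mice.

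None of the 6 tested genes of intermediate progenitors was called by either test, and the smallest p belonged to Neurog2, a proneural transcription factor, at −0.25 ± 0.09 (SE, adjusted p 0.16).

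Of 20 tested genes of neuroblasts and young neurons, Sox11 was called by limma, higher at its brightest probe, and the other 19 were not (5%, against 3.49%). The rank product did not call it (pfp 0.0894). Sox11, a partner of Sox4 in young neurons, was 9.21, 9.18, 9.47 and 9.22 in B6 and 9.94, 9.76, 9.77 and 9.71 in BTBR at its brightest probe (base 4667), a difference of 0.53 ± 0.09 (SE, adjusted p 0.0051) that was called in all 8 fits that left out a mouse, and 0.47 without BTBR 1 and BTBR 2 (adjusted p 0.03999). Its 5 tested probes did not give the same direction. At base 2141 the difference was 0.41 (adjusted p 0.0441) and at base 1907, on another accession, 0.19 (0.13), but at base 7461 it was −0.50 (adjusted p 0.00999) and at base 7983 −0.39 (0.0815). The probes toward the 3′ end were thus lower in BTBR and those before them higher, and no direction is given for the gene as a whole. A sequence difference between the strains under a probe was not tested.

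Among 18 tested niche signals and regulators, Vegfa, the vascular growth factor, and Nog (noggin, an inhibitor of bone morphogenetic proteins) rose by limma (11.1%, against 3.49%) and none fell. The rank product called neither (pfp 0.16 and 0.55) and called 2 others lower, Bdnf and Frzb (11.1%, against 2.39%), as given above. Vegfa was 12.60, 12.43, 12.73 and 12.81 in B6 and 13.23, 12.97, 13.01 and 13.13 in BTBR, a difference of 0.44 ± 0.10 (SE, adjusted p 0.0268). All 4 of its tested probes were higher in BTBR, by 0.15 to 0.44, and 2 were called. Nog was 0.27 ± 0.07 (SE, adjusted p 0.0434). The Vegfa call was kept in 3 and the Nog call in 1 of the 8 fits that left out a mouse, and without BTBR 1 and BTBR 2 the differences were of like size, 0.43 and 0.29, and not called (adjusted p 0.0988 and 0.11).

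**Figure D4:**
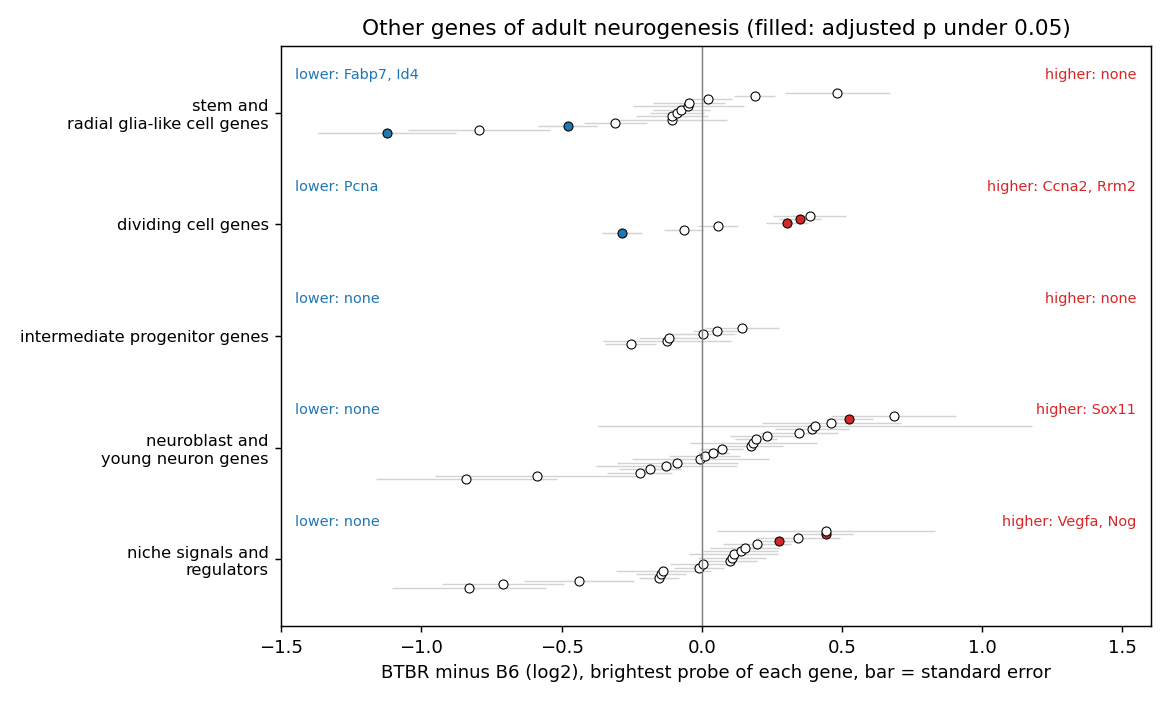
Difference BTBR minus B6 (x axis, log2, bars are standard errors) of the brightest probe of 63 tested genes in 5 groups (y axis), with filled points for an adjusted p under 0.05 and their names in the margins. The 2 called stem cell genes, Fabp7 and Id4, lie below 0, and 55 of the 63 genes are unfilled, on both sides of 0. Rrm2 is filled but passed the filter on dim probes only through BTBR.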

How the data were processed

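Total RNA of 8 hippocampi, 4 of each strain, was labelled with Cy3 and hybridised to 8 Agilent arrays with 45018 spots. The deposited scanner tables, made with the Feature Extraction software, whose release is 10.7.3.1 in the headers, hold spot intensity values (mean signal and local background, as the authors' scanner gave them, not normalized). The deposited matrix of log2 values, as the authors normalized them, served as an alternative. Background was subtracted (floor 0.5) and an offset of 50 was added, settings that the study's methods do not print, since they name a preprocessing package at its defaults. Following those methods, values were quantile normalized and reduced to the median over replicate spots, here after taking log2. Outlier spots were left out (154 probes had no other spot on some array). The 27982 probes well above background on 75% of the arrays of a strain were tested with limma 3.58.1 (R 4.3.3, Benjamini-Hochberg, adjusted p under 0.05) and with the rank product the methods name, written out here with 100 permutations. Both were run on simulated data with independent noise and added changes larger than any difference of the 9 genes. That run had no slide or tissue effects, so it does not speak for small differences or for such effects. All 9 genes are named, and from each list the called genes with the smallest p, at most 3 in each direction, or else the gene with the smallest p. A gene's brightest probe stands for it on the lists. From the marker lists, the genes at either end were named. The genes and lists were chosen with earlier results of these data known. The number of arrays limits the precision, each mouse is 1 sample, and alternatives were other background corrections, scalings, filters, blocks, thresholds and left-out arrays.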

Additional observations from a re-analysis of the deposited data

How the results depend on the processing

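The 8 tested probes other than Igfbpl1 kept 0 limma calls under 17 of 22 alternatives and 0 rank product calls under 12 of 19. Where limma called 1 probe it was Hes5: on the processed signal, with slide as a block, at a threshold of 0.10, without BTBR 1, and without BTBR 1 and BTBR 2. The rank product called 1 probe, Hes5, with normexp background correction, on the deposited matrix, with median centring, with no filter on dim probes, at a pfp of 0.10, without BTBR 1, and without BTBR 1 and BTBR 2. On the processed signal its 1 call fell on Igfbpl1, which is described without a test and is not counted here. Over the fits without 1 mouse both counts were thus 0 to 1. Over the alternatives Hes5 ran from −0.83 to −0.51, with adjusted p from 0.0200 to 0.13. The sign turned for Dcx over the fits without 1 mouse (−0.052 to 0.21, with −0.025 without B6 4) and for Sox2 (−0.10 to 0.019, with 0.0087 without B6 3), and without BTBR 1 and BTBR 2 for Neurod2 (0.25 and 0.38), Tubb3 (−0.058) and Dcx (−0.10). The cause was not tested. The differences of dim probes ranged from 0.07 to 1.30 for Igfbpl1 and from −0.96 to −0.11 for Neurod1 over all alternatives.

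The 8 calls on the neurogenesis list (5 higher, Rrm2 among them, and 3 lower) became 5 with median centring, of which 2 higher, 1 at a threshold of 0.01 (1 higher, 0 lower), and 3 without BTBR 1 and BTBR 2, of which 1 higher. With slide as a block 6 were lower. Without 1 mouse there were 1 to 8 calls, 1 to 4 higher (Sox11 each time) and 0 to 4 lower, from fits with fewer samples. Sox11 taken as the median level over its probes was −0.25 instead of 0.53, a value that sets different probes against each other, since the middle probe differs between the strains; the median of the 5 probe differences was 0.19. The median of all probes stayed between −0.01 and 0.03 under every alternative. The replicate numbers did not pair the mice (correlations of their deviations −0.14, 0.51, −0.10 and 0.39). With the replicate block there were 0 calls among the 8 probes other than Igfbpl1 and 6 on the list. With 4 arrays a strain, the dim probes (Eomes, Igfbpl1, Neurod1 and the Dcx probes at bases 1224 and 3396) limit what could be seen.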
